A study of Mus musculus with 4 samples.

Results

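The let-7 5p arms are 10 mature miRNAs: the a to g and i members (mmu-let-7a-5p to mmu-let-7i-5p, with no h or j), mmu-let-7k and mmu-miR-98-5p. They were picked by exact name from the deposited count table, and all 10 were found among its 1900 miRNA names. The prefix mmu, for mouse, is left out below. The libraries hold small RNA from an RNA immunoprecipitation for Argonaute2 (AGO2) on freshly dissected olfactory bulb of C57BL/6 mice. The GFP-AGO2 group (n = 2 libraries, replicates 1 and 3) came from mice that had received the vector LV.PGK.GFP-AGO2, named for a fusion of green fluorescent protein to AGO2 and for PGK, a promoter active in many cell types. The Control group (n = 2 libraries, replicates 1 and 3) came from sham-injected mice, and both groups were taken 8 weeks after the injection. The series text speaks of newborn neurons, whereas the sample labels name the whole tissue. No source used here gives the antibody, so RNA carried by the animals' own AGO2 and background of the pull-down cannot be told apart in Control, and each difference below is one between the immunoprecipitates of vector-injected and sham-injected mice. Nothing in the labels says that the libraries of a group are from separate animals, so p-values can speak only to how these 4 libraries spread, and that spread could be technical.

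Let-7 miRNAs are processed from hairpin precursors by Drosha and Dicer, and the 5p arm is the strand that AGO proteins mostly keep as the guide. The guide finds its targets through the seed, bases 2 to 8 from its 5′ end, and lowers the translation and stability of the paired messenger RNAs. In the nervous system let-7 accumulates as cells leave the cycle and mature, opposed by LIN28, which blocks the processing of its precursors. The study's title places let-7 in the migration of newborn neurons and in autophagy.

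The mature sequences show what the members share and where they part. They are given 5′ to 3′ from RefSeq (GRCm38.p6), with the seed in capitals.
let-7a-5p: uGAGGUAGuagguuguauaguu
let-7b-5p: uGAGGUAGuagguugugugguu
let-7c-5p: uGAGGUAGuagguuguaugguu
let-7d-5p: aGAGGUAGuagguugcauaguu
let-7e-5p: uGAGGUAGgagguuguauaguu
let-7f-5p: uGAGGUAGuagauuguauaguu
let-7g-5p: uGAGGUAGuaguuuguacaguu
let-7i-5p: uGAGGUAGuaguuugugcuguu
let-7k: uGAGGUAGgagguugugug
miR-98-5p: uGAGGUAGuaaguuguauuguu
All 10 carry the same seed, so they differ only outside it. Among the 1603 names of the table with a RefSeq mature sequence, 11 have this seed, and the only one outside the family is miR-1961. Relative to let-7a-5p, and counting from the 5′ end, let-7c-5p has A19G, let-7e-5p has U9G and let-7f-5p has G12A, a single base each. Let-7b-5p has A17G and A19G, and let-7d-5p has U1A and U16C. Let-7g-5p has G12U and U18C, and let-7i-5p has these and also A17G and A19U. MiR-98-5p has G11A and A19U. Let-7k, listed with 19 bases where the others have 22, has U9G, A17G and A19G. Of the 45 pairs of members, 5 differ at 1 base over the compared length, so a sequencing error or a mismatch in alignment can move a read from 1 name to another. Let-7a-5p, let-7c-5p and let-7f-5p are each encoded at 2 genomic positions, and their counts cannot be split between them.

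Levels are given in CPM, counts relative to a library size scaled by the TMM method. The members together had 469502 and 413233 CPM in GFP-AGO2 replicates 1 and 3, and 404803 and 451469 CPM in Control replicates 1 and 3. The groups overlapped in this sum. The raw counts of single members ran from 1609 to 400434 in the GFP-AGO2 libraries and from 486 to 112096 in the Control libraries, out of totals of 1858354 to 2809758 and 673916 to 1006861 miRNA counts. All members but let-7k have the same length, but ligation and PCR can favour some sequences, so the order of members below is one of read counts.

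Let-7c-5p and let-7b-5p stood at the top of the family in both groups. Let-7c-5p had 134761 and 125113 CPM in GFP-AGO2, against 108881 and 121825 CPM in Control. Let-7b-5p had 129678 and 110443 CPM in GFP-AGO2, against 116524 and 130604 CPM in Control. Let-7c-5p ranked first and let-7b-5p second among all names in both GFP-AGO2 libraries, and the order was the other way round in both Control libraries. Within each group the CPM of the 2 miRNAs overlapped across libraries. The exchange of ranks shows when each library is read on its own, and in the group means.

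Next came let-7a-5p and let-7f-5p. Let-7a-5p had 52367 and 47718 CPM in GFP-AGO2, against 59061 and 66447 CPM in Control. Both GFP-AGO2 libraries lay below both Control libraries. Let-7f-5p had 52182 and 41137 CPM in GFP-AGO2, against 37015 and 44435 CPM in Control, and its groups overlapped. In GFP-AGO2 the libraries of let-7a-5p and let-7f-5p overlapped with each other, whereas in Control every library of let-7a-5p was above every library of let-7f-5p.

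Let-7i-5p came after these in both groups, with 40211 and 32970 CPM in GFP-AGO2 and 26467 and 26758 CPM in Control. The GFP-AGO2 libraries both exceeded the Control libraries and lay further apart than these. Let-7d-5p had 19730 and 19387 CPM in GFP-AGO2, against 21820 and 22456 CPM in Control, so that GFP-AGO2 was lower without overlap. Let-7g-5p had 21083 and 18715 CPM in GFP-AGO2 and 18660 and 20160 CPM in Control. Let-7e-5p had 17762 and 16116 CPM in GFP-AGO2 and 15049 and 17142 CPM in Control. Both of these overlapped between the groups. In GFP-AGO2 the libraries of let-7g-5p and let-7d-5p overlapped with each other, and in Control let-7d-5p was above let-7g-5p in both libraries.

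Let-7k and miR-98-5p were the least abundant members by a wide margin. Let-7k had 869 and 789 CPM in GFP-AGO2 and 771 and 839 CPM in Control. MiR-98-5p had 860 and 844 CPM in GFP-AGO2, against 554 and 802 CPM in Control. The GFP-AGO2 libraries of miR-98-5p were close together and above both Control libraries, which were far apart. From the highest to the lowest mean, the family spanned 157-fold in GFP-AGO2 and 182-fold in Control.

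**Figure D1:**
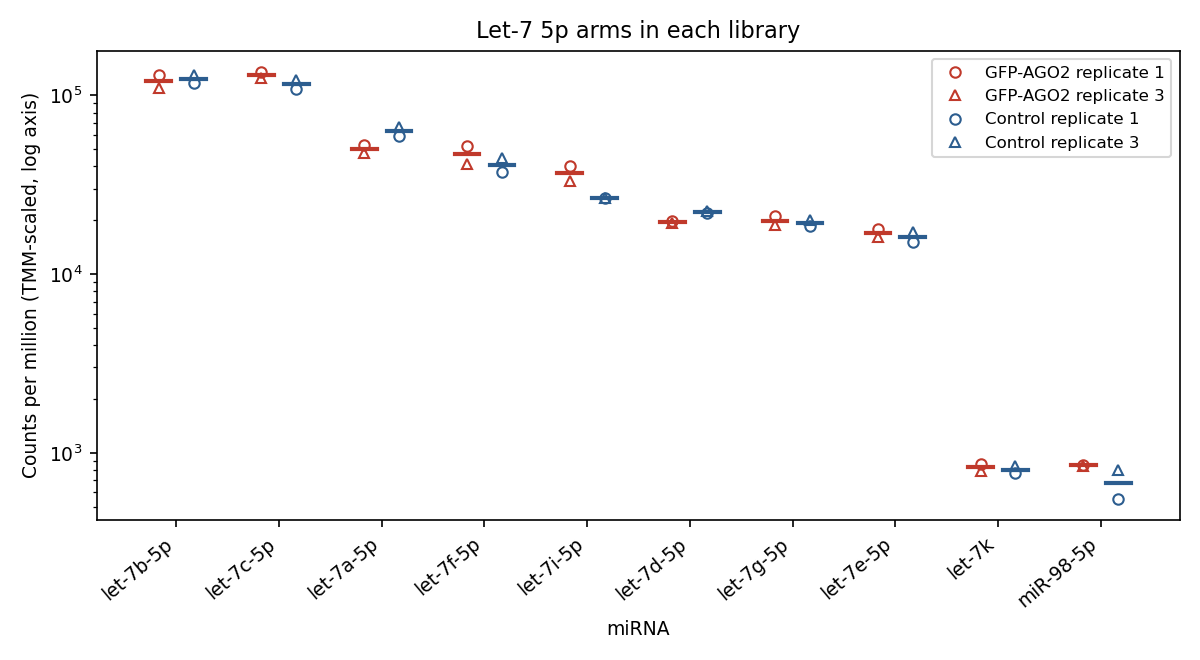
CPM of each let-7 5p arm in each library on a log axis, with GFP-AGO2 left of Control for each miRNA, open symbols for single libraries and bars for the mean of 2. Let-7i-5p lies higher in both GFP-AGO2 libraries and let-7a-5p lower, while the b, e, f, g and k members overlap.

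The comparison of GFP-AGO2 with Control asks whether any member took a different level in the AGO2 immunoprecipitate of vector-injected mice. No let-7 5p arm passed edgeR's quasi-likelihood test at an adjusted p under 0.05: 0 of 10 were called, against 157 of the 457 miRNAs tested, or 34.4%. At an unadjusted p under 0.05 there were 2 of the 10 members, let-7i-5p and let-7a-5p, against 210 of the 457, and DESeq2 called 0 members. The median log2 fold change, GFP-AGO2 over Control, was 0.06 over the members and -0.01 over all tested miRNAs. The median size of the change, regardless of sign, was 0.18 over the members and 0.84 over all. The largest change in the family was 0.46 in size, and 149 of the 457 miRNAs, or 32.6%, were at or under it. In CPM the groups did not overlap for 5 of the 10 members, against 72.0% of all tested miRNAs. Of these, 3 were higher in GFP-AGO2 (let-7c-5p, let-7i-5p and miR-98-5p) and 2 lower, against 36.8% and 35.2% of all. The share of tested miRNAs called depended on the setting: it was 36.3% with total counts alone, 32.4% with the let-7 5p sum as library size, 18.3% with no filter, 51.2% at a minimum count of 50 and 35.2% by DESeq2. It was 35.9% in a fit blocked on replicate number, 35.6% without names of several positions, 36.5% without GFP-AGO2 replicate 1, 43.8% without GFP-AGO2 replicate 3, 19.7% without Control replicate 1 and 22.3% without Control replicate 3.

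Let-7i-5p had the largest estimate. It averaged 36590 ± 5120 CPM in GFP-AGO2 and 26613 ± 206 CPM in Control (SD, n = 2 each), a log2 fold change of 0.46 with a standard error (SE) of 0.14. Its edgeR adjusted p was 0.0554 and its 95% interval, before adjustment, ran from 0.11 to 0.81. Over 13 alternative settings it lay between 0.31 (1 library left out) and 0.70 (no filter on low counts). It was called higher in 5 of these, among them the fits that leave out GFP-AGO2 replicate 1 (0.31) or 3 (0.60), where the spread comes from the Control libraries alone.

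Let-7a-5p had the largest estimate in the other direction. It averaged 50043 ± 3287 CPM in GFP-AGO2 and 62754 ± 5223 CPM in Control (SD, n = 2 each), a log2 fold change of -0.33 (SE 0.12, edgeR adjusted p = 0.0979, 95% interval -0.64 to -0.01). It stayed below 0 in 12 alternative settings, between -0.44 and -0.08. It was called lower in 4 of these, without either GFP-AGO2 library (-0.40 without replicate 1, -0.26 without replicate 3) and where library size was the let-7 5p sum (-0.37) or left out the miRNAs of the miR-200 and miR-183 groups (-0.44).

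The other members had log2 fold changes of 0.33 for miR-98-5p (SE 0.21), 0.20 for let-7f-5p (SE 0.17), 0.17 for let-7c-5p (SE 0.12), 0.07 for let-7e-5p (SE 0.13), 0.04 for let-7k (SE 0.15), 0.04 for let-7g-5p (SE 0.13), -0.04 for let-7b-5p (SE 0.13) and -0.18 for let-7d-5p (SE 0.11). Their edgeR adjusted p-values were between 0.27 and 0.866. The 95% intervals of the 7 of these other than miR-98-5p stayed within -0.46 and 0.63, and that of miR-98-5p ran from -0.20 to 0.87, so for the abundant members a change of more than about 1 on the log2 scale lies outside the interval. The median SE of the 8 members above 10000 CPM was 0.13, against 0.35 over all tested miRNAs. By the mean CPM over the 4 libraries, 14 other miRNAs reached 10000, of which 11 were called, with a median change of 0.75 in size. A miRNA can reach that mean through the group where it is high. MiR-99b-5p and miR-125a-5p did so, with both Control libraries under 10000 CPM. These 14 are therefore no yardstick for the members.

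**Figure D2:**
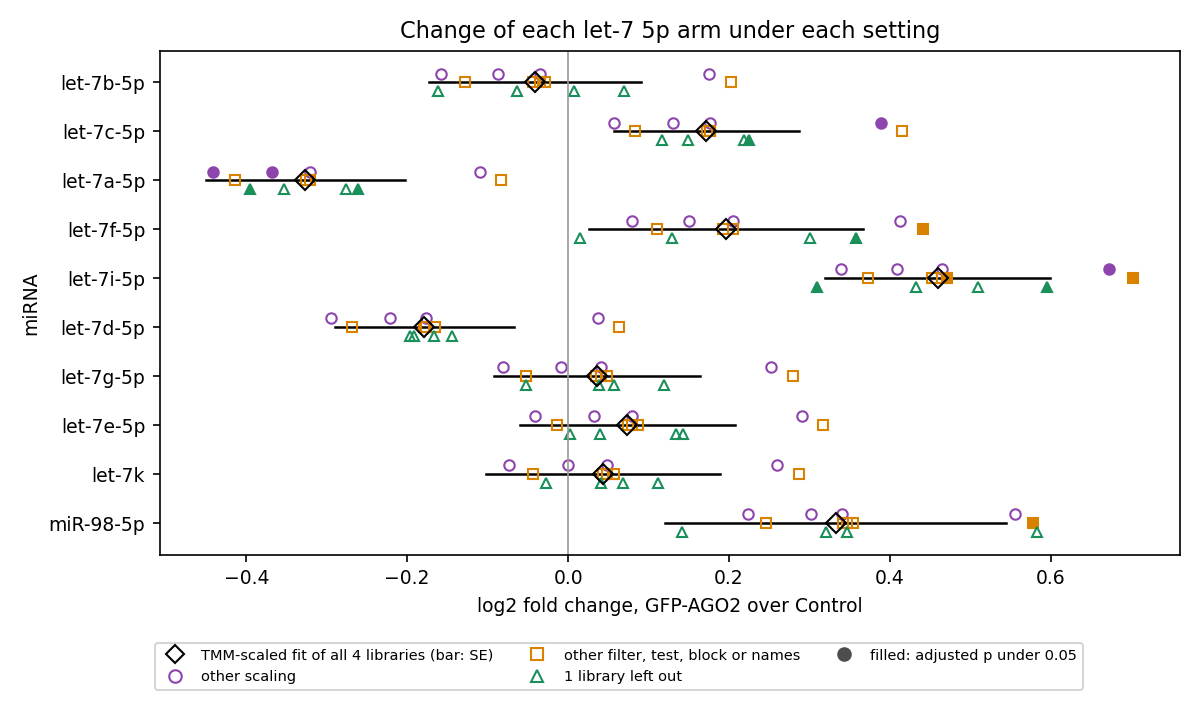
Log2 fold change, GFP-AGO2 over Control, of each let-7 5p arm under each setting, with a diamond and SE bar for the TMM-scaled fit of all libraries and filled symbols at an adjusted p under 0.05. Let-7i-5p stays right of 0 and let-7a-5p left of 0 in every setting shown, and the b, d, e, g and k members have values on both sides of 0.

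As a percent of each library's miRNA counts, 9 of the 10 members were higher in both GFP-AGO2 libraries than in both Control libraries, and let-7a-5p was lower, against 44.4% of tested miRNAs higher, 30% lower and 74.4% either way. Let-7i-5p took 4.25% and 3.62% of the counts in GFP-AGO2, against 2.53% and 2.41% in Control. Let-7c-5p took 14.3% and 13.7% in GFP-AGO2, against 10.4% and 10.95% in Control. Let-7d-5p took 2.09% and 2.13% in GFP-AGO2, against 2.08% and 2.02% in Control, and the exact 95% intervals of GFP-AGO2 replicate 1 (2.07% to 2.10%) and Control replicate 1 (2.06% to 2.11%) overlapped. These intervals cover counting error only, as PCR copies are counted as separate reads. Let-7a-5p took 5.54% and 5.23% in GFP-AGO2, against 5.64% and 5.97% in Control. In the same libraries the miRNAs of the miR-200 and miR-183 groups took 2.61% and 5.10% in GFP-AGO2 and 23.9% and 23.4% in Control. They are listed here as markers of epithelial and sensory cells, but no label says which cells of this tissue carried them. A percent of the total moves with such a group. With these miRNAs left out of the denominator, the 10 members summed to 50.98% and 47.8% in GFP-AGO2 and 50.8% and 52.98% in Control, and the groups overlapped. In these pull-downs from whole tissue, fewer cells of a type, less RNA per cell and a different recovery of those cells' RNA cannot be told apart.

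The make-up of the family does not depend on the scaling between libraries, and by this measure the groups separated for 7 of the 10 members, a share like that of tested miRNAs in general. As a percent of the let-7 5p counts, 4 members were higher in both GFP-AGO2 libraries (let-7c-5p, let-7f-5p, let-7i-5p and miR-98-5p), 3 were lower (let-7a-5p, let-7b-5p and let-7d-5p) and 3 overlapped (let-7e-5p, let-7g-5p and let-7k). Relative to the same let-7 5p sum, 70.5% of all tested miRNAs did not overlap, so the members' count is near the background, with 35% of miRNAs higher and 35.4% lower in GFP-AGO2. Let-7a-5p made up 11.2% and 11.5% of the family in GFP-AGO2, against 14.6% and 14.7% in Control. Let-7i-5p made up 8.56% and 7.98% in GFP-AGO2, against 6.54% and 5.93% in Control. For both the gap between the nearest libraries of the groups was larger than the gap between the libraries of a group. The same held for let-7b-5p and let-7c-5p.

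Let-7c-5p made up 28.7% and 30.3% of the family in GFP-AGO2, against 26.9% and 26.98% in Control. Let-7b-5p made up 27.6% and 26.7% in GFP-AGO2, against 28.8% and 28.9% in Control. The 2 together held 56.3% and 57.0% in GFP-AGO2 and 55.7% and 55.9% in Control, so their shares moved in opposite directions within a nearly constant sum. Let-7f-5p made up 11.1% and 9.96% in GFP-AGO2, against 9.14% and 9.84% in Control, and the lower GFP-AGO2 library was close to the higher Control library. Let-7d-5p made up 4.2% and 4.69% in GFP-AGO2, against 5.39% and 4.97% in Control. Let-7g-5p, at 4.49% and 4.53% in GFP-AGO2 and 4.61% and 4.46% in Control, and let-7k, at 0.185% and 0.191% in GFP-AGO2 and 0.190% and 0.186% in Control, differed less between the groups than within Control. By the exact two-sided permutation test each of the 7 separated members had p = 0.33, the smallest value that 2 libraries against 2 allow, and 0.476 when adjusted over the 10 members.

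**Figure D3:**
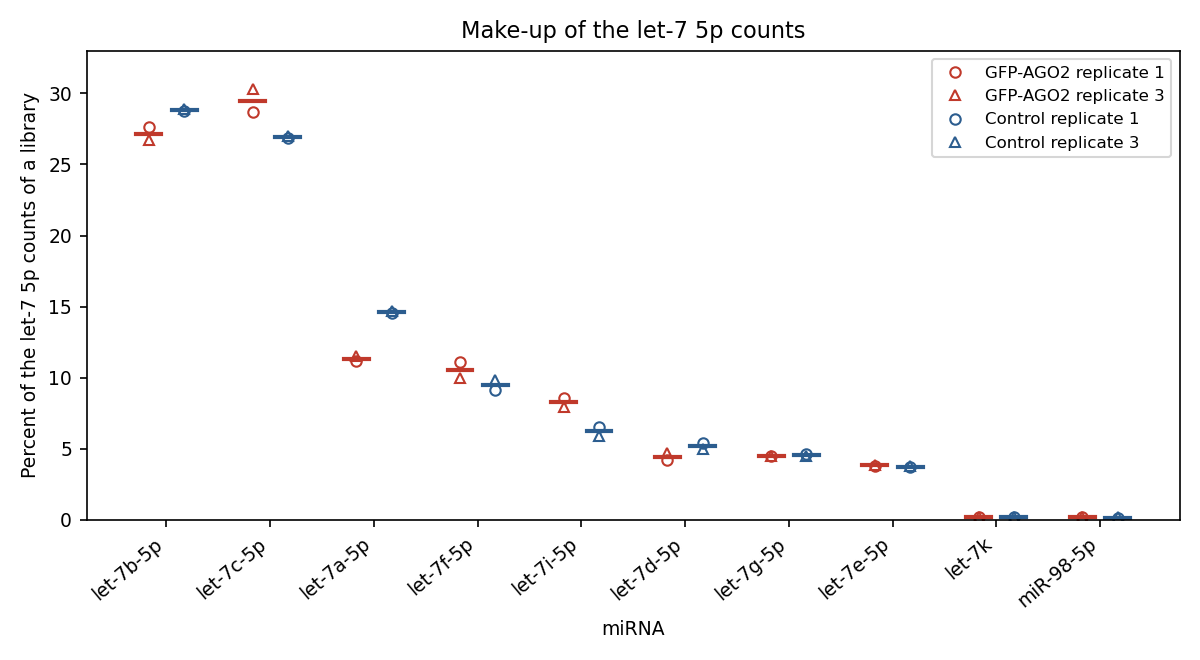
Percent of each library's let-7 5p counts taken by each member, with GFP-AGO2 left of Control, open symbols for single libraries and bars for the mean of 2. Let-7a-5p takes 11.2% and 11.5% in GFP-AGO2 and 14.6% and 14.7% in Control, and let-7c-5p overtakes let-7b-5p in GFP-AGO2.

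Ratios between members of like sequence give the same make-up library by library. The pairs were picked for their likeness in sequence with the values known, so the ratios are a description without a test. Per count of let-7a-5p there were 2.57 and 2.62 counts of let-7c-5p in GFP-AGO2, against 1.84 and 1.83 in Control. Let-7e-5p gave 0.339 and 0.338 in GFP-AGO2, against 0.255 and 0.258 in Control. Let-7f-5p gave 0.996 and 0.862 in GFP-AGO2, against 0.627 and 0.669 in Control. Each of these 3 partners differs from let-7a-5p by A19G, U9G or G12A alone, and each ratio was higher in both GFP-AGO2 libraries. They share the denominator let-7a-5p, whose own share of the family was lower in GFP-AGO2, so they are not 3 separate observations, and the share of the family taken by let-7e-5p overlapped between the groups. Let-7c-5p gave 1.04 and 1.13 counts per count of let-7b-5p in GFP-AGO2, against 0.934 and 0.933 in Control, and these 2 differ by G17A, read from let-7b-5p to let-7c-5p.

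Let-7g-5p and let-7i-5p, which share G12U and U18C and are set apart from each other by A17G and A19U, were not called singly. There were 1.91 and 1.76 counts of let-7i-5p per count of let-7g-5p in GFP-AGO2, against 1.42 and 1.33 in Control. Let-7k differs from let-7b-5p by U9G over its 19 bases, and from let-7e-5p by A17G and A19G, read from the longer miRNA to let-7k. Let-7e-5p had 20.4 and 20.4 counts per let-7k count in GFP-AGO2 and 19.5 and 20.4 in Control. Let-7b-5p had 149 and 140 counts per let-7k count in GFP-AGO2, against 151 and 156 in Control. The ratio to let-7e-5p was thus nearly the same in the 4 libraries, whose let-7k counts were 2583 and 1609 in GFP-AGO2 and 742 and 508 in Control. Let-7g-5p, which differs from let-7k at 5 bases, kept step with it too. It had 62647 and 38141 counts in GFP-AGO2 and 17951 and 12212 in Control. A steady ratio to let-7k was therefore not particular to let-7e-5p. Whether reads of the more abundant members reach the let-7k name was not tested. Over the 10 members, the number of U bases and the log2 fold change had Pearson's r = 0.476 and Spearman's rho = 0.558, and the percent of G and C had r = -0.181 and rho = -0.252. These are descriptions over members that share their libraries and most of their bases.

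**Figure D4:**
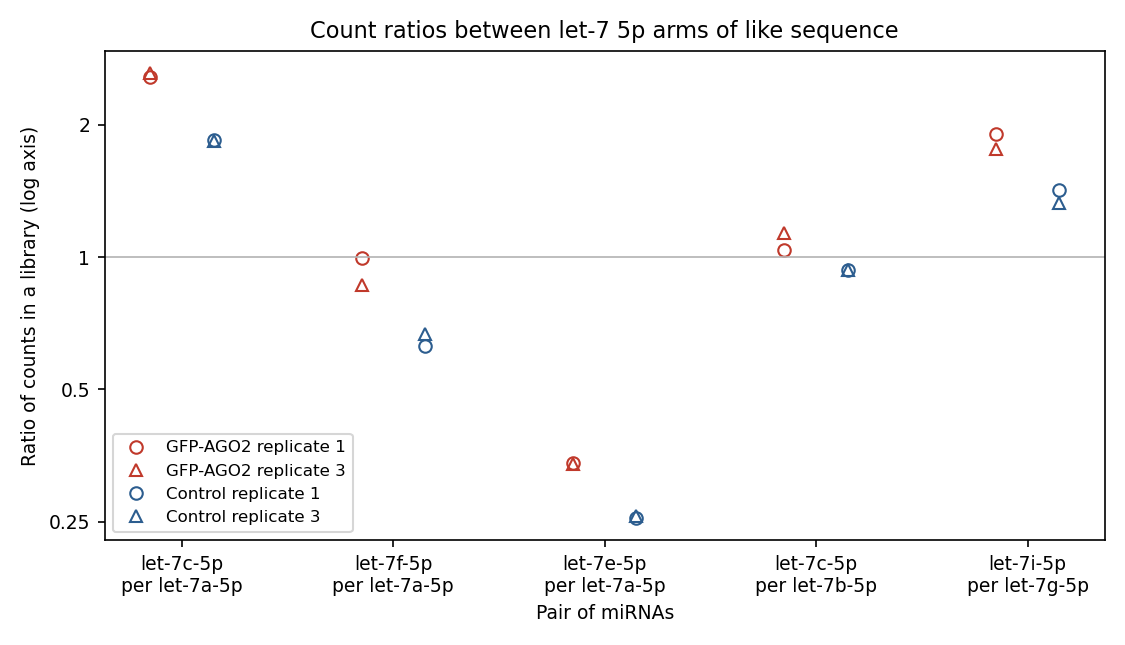
Count ratio within each library, on a log axis, for 4 pairs of let-7 5p arms that differ at 1 base and for let-7i-5p per let-7g-5p, with GFP-AGO2 left of Control. The 5 ratios shown are higher in both GFP-AGO2 libraries as written; their direction depends on which member is the denominator, 3 share let-7a-5p, and the 1-base pair of let-7b-5p and let-7k is not shown.

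Members encoded side by side were compared next, since such hairpins can come from 1 primary transcript. On chromosome 13 (mm10, minus strand) let-7a-5p at 48538239 to 48538260, let-7f-5p at 48537889 to 48537910 and let-7d-5p at 48536078 to 48536099 all lie in exons of the long non-coding RNA 6720427I07Rik. Their log2 fold changes were -0.33, 0.20 and -0.18. Let-7f-5p had 2.64 and 2.12 counts per let-7d-5p count in GFP-AGO2, against 1.70 and 1.98 in Control. Let-7a-5p and let-7f-5p have a second position each, on chromosome 9 (41536732 to 41536753, plus strand, in introns of 3110039I08Rik and Gm49317) and on chromosome X (151912353 to 151912374, plus strand, in an intron of Huwe1). MiR-98-5p lies in Huwe1 too, at 151913229 to 151913250, and had 0.0165 and 0.0205 counts per let-7f-5p count in GFP-AGO2 and 0.015 and 0.0181 in Control, which overlap. The chromosome 13 position of let-7f-5p and the position of let-7e-5p lie opposite annotated miRNA genes on the other strand, Gm24111 and Gm25927, and the counting command carries no strand option.

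On chromosome 15 (plus strand) let-7c-5p at 85706616 to 85706637 and let-7b-5p at 85707325 to 85707346 lie in exons of Lncppara. The second position of let-7c-5p is on chromosome 16 (77599672 to 77599693, plus strand, in an intron of Mir99ahg), beside miR-99a. Let-7g-5p (chromosome 9, 106178846 to 106178867, plus strand) lies in an intron of Wdr82. Let-7i-5p (chromosome 10, 122985698 to 122985719, minus strand) lies in an exon of the transcribed pseudogene D630033A02Rik, and let-7k (chromosome 5, 147283257 to 147283275, minus strand) within no gene other than its own. The last 3 have no other miRNA name except their own 3p arm within 10000 bases.

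Beside let-7e-5p on chromosome 17 (17830366 to 17830387, plus strand, in an intron of Spaca6) lie miR-99b and miR-125a, of which miR-99b-5p and both arms of miR-125a rose. MiR-99b-3p (0.25, SE 0.15, edgeR adjusted p = 0.263) and let-7e-5p did not pass the test, and no test compared let-7e-5p with its neighbours. MiR-99b-5p had 16930 and 16424 CPM in GFP-AGO2, against 9651 and 9160 CPM in Control (log2 fold change 0.83, SE 0.12, edgeR adjusted p = 0.00687). MiR-125a-5p had 12292 and 12207 CPM in GFP-AGO2, against 9334 and 8639 CPM in Control (log2 fold change 0.45, SE 0.12, edgeR adjusted p = 0.0389). Let-7e-5p had 1.05 and 0.981 counts per miR-99b-5p count in GFP-AGO2, against 1.56 and 1.87 in Control. Leaving out Control replicate 1 or 3 ended the call of miR-99b-5p (0.92 and 0.75, edgeR adjusted p = 0.0936 and 0.127) and of miR-125a-5p (0.56 and 0.35), which 5 further settings also left uncalled. Around the second positions of let-7c-5p and let-7a-5p, miR-99a-5p and miR-100-5p had log2 fold changes of -0.06 (SE 0.27) and -0.22 (SE 0.21) and were not called. Of the 11 arms of miR-99a, miR-99b, miR-100, miR-125a and miR-125b, 9 were tested, 3 rose (miR-99b-5p and both arms of miR-125a) and 0 fell, with a median log2 fold change of 0.25, against 17.3% and 17.1% of all tested miRNAs called higher and lower. No 3p or neighbouring arm fell at an unadjusted p under 0.05 or by DESeq2, and 2 fell in the fit without GFP-AGO2 replicate 3.

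The 3p arm of a precursor, the strand usually discarded when the 5p arm is loaded, gives a second reading of each hairpin. Of 12 let-7 3p arms, 9 were tested, 3 rose and 0 fell, with a median log2 fold change of 0.14, against 17.3% of all tested miRNAs called higher and 17.1% called lower. The call of let-7a-1-3p (log2 fold change 1.07, edgeR adjusted p = 0.00778) ended when Control replicate 1 (1.11, adjusted p = 0.0554) or 3 (1.05, adjusted p = 0.0576) was left out. The arms that rose were read from these sequences, shown with bases 2 to 8 in capitals because 1 of them is shared between hairpins.
let-7d-3p: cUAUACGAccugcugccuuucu
let-7e-3p: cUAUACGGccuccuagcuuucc
let-7a-1-3p: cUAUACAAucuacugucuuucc
The RefSeq sequence of let-7c-2-3p is identical to that of let-7a-1-3p, so the counts under both names can come from either hairpin. Under its own name let-7c-2-3p did not rise (log2 fold change 0.01, SE 0.40, edgeR adjusted p = 0.986). It had 97 and 42 counts in GFP-AGO2 and 27 and 15 in Control. Per 1000 counts of let-7d-5p there were 720 and 691 counts of let-7d-3p in GFP-AGO2, against 238 and 244 in Control. Let-7e-3p had 5.27 and 7.19 counts per 1000 let-7e-5p counts in GFP-AGO2, against 2.14 and 2.41 in Control. The names let-7a-1-3p, let-7a-2-3p and let-7c-2-3p together had 26.6 and 23.7 counts per 1000 let-7a-5p counts in GFP-AGO2, against 10.3 and 9.34 in Control. Each of these 3 ratios was higher in both GFP-AGO2 libraries, and the last mixes reads of more than 1 hairpin on both sides. The ratios of the let-7b and miR-98 hairpins, given below, were also higher in both GFP-AGO2 libraries. No share over all hairpins was computed for such ratios.

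For the other hairpins the 3p arms were not called or not tested. Let-7b-3p had 3.79 and 4.24 counts per 1000 let-7b-5p counts in GFP-AGO2, against 3.45 and 3.58 in Control. Both let-7f 3p arms together had 1.06 and 1.72 per 1000 let-7f-5p counts in GFP-AGO2 and 1.63 and 0.929 in Control, and let-7i-3p had 0.485 and 0.446 per 1000 let-7i-5p counts in GFP-AGO2 and 0.432 and 1.79 in Control. The last 2 overlap between the groups. MiR-98-3p had 7.44 and 5.23 counts per 1000 miR-98-5p counts in GFP-AGO2, against 3.75 and 0 in Control, from 19 and 9 counts in GFP-AGO2 and 2 and 0 in Control. Let-7g-3p had 0 and 3 counts in GFP-AGO2 and 0 and 0 in Control.

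**Figure D5:**
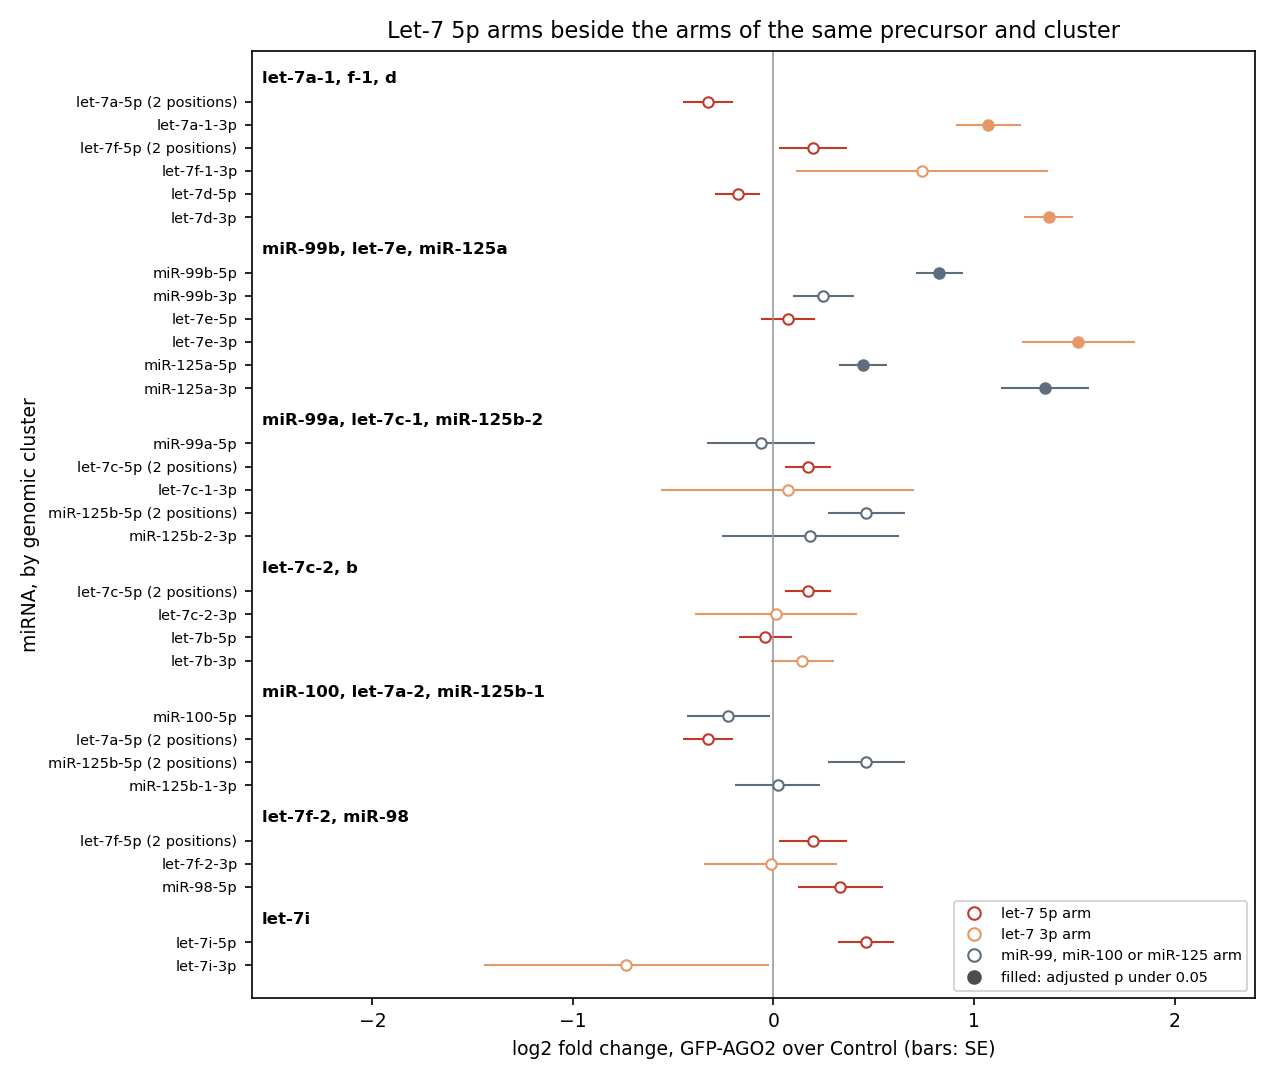
Log2 fold change with SE, GFP-AGO2 over Control, of let-7 5p arms, let-7 3p arms and neighbouring miR-99, miR-100 and miR-125 arms, grouped by genomic cluster; names of 2 positions appear at both, and filled symbols have an adjusted p under 0.05. The filled symbols are 3 let-7 3p arms and 3 arms of miR-99b and miR-125a, and no let-7 5p arm is filled.

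Related names outside the 10 were rare. Let-7j, which does not have the family's seed, had 39 and 26 counts in GFP-AGO2 and 8 and 3 in Control (log2 fold change 0.91, SE 0.56, edgeR adjusted p = 0.263). MiR-202-3p, which has the same bases 2 to 8 as let-7j, had 0 counts in the 4 libraries. Across the 4 libraries, the miRNAs outside the family whose centred log2 CPM was nearest to that of the summed let-7 5p counts were miR-129-5p, miR-669c-5p, miR-26b-5p, let-7b-3p and miR-3068-5p, with root mean square differences of 0.05 to 0.07 on the log2 scale. With 4 points each, this describes level profiles and no more.

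Marker miRNAs give the setting of these values. Of 10 neuronal markers 9 were tested, 2 rose and 1 fell, against 17.3% and 17.1% of all tested miRNAs, and they summed to 3.90% and 3.51% of the counts in GFP-AGO2 and 3.07% and 3.55% in Control. All 8 miRNAs listed as markers of epithelium and sensory cells fell, with sums of 2.56% and 4.998% in GFP-AGO2, against 23.4% and 22.98% in Control. Of the 4 vessel markers 1 was tested, and it was not called. Their sums were 0.0282% and 0.145% in GFP-AGO2 and 0.424% and 0.302% in Control, and the defining miR-126a-3p was listed at 0. Of the immune markers 3 were tested and 2 fell, with sums of 0.00772% and 0.0227% in GFP-AGO2, against 0.0609% and 0.0521% in Control. Of the muscle markers 1 of 2 tested fell, and so did the 1 blood marker tested, with sums of 0.00338% and 0.00705% for muscle and 3.56e-05% and 0.000484% for blood in GFP-AGO2, against 0.017% and 0.0113% for muscle and 0.00268% and 0.00341% for blood in Control. The 1 liver marker was not called. The 3 oligodendrocyte markers were listed at 0 in the 4 libraries. Also at 0 were miR-129-2-3p of the neuronal list, miR-126a-5p of the vessel list and miR-142-3p of the immune list. Whether these zeros come from the counting, which had no option for strand or for reads over several names, was not tested. They are thus not read as the absence of a cell type. The part of cell make-up in the make-up of the let-7 family was not tested.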

How the data were processed

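Per the file headers, the authors counted primary alignments in a mature-miRNA annotation for mm10 (featureCounts v1.4.6-p1), giving whole-number counts per name. The command has no strand option and none for reads that overlap several names. The tools cutadapt and STAR are named, with no version, per the submitters' processing notes. Totals were 1858354 to 2809758 counts in GFP-AGO2 and 673916 to 1006861 in Control.

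Columns were tied to samples by title. The test was that of edgeR 4.0.16 (R 4.3.3, quasi-likelihood F test, TMM, filterByExpr at a minimum count of 10, Benjamini-Hochberg over the 457 names left, two-sided), after a check on simulated data; SE is the log2 fold change over the square root of F. DESeq2 1.42.0 and other scalings, filters and sample sets were alternatives. Shares were compared by the exact two-sided permutation test, and their 95% intervals are Clopper-Pearson. Annotation came from GENCODE vM21 (GRCm38, the same assembly as mm10). RefSeq sequences were matched by name for all 10 members. The members, lists and comparisons were chosen with earlier results of these data known. The named miRNAs were the 10 members, let-7j, miR-202-3p, the let-7 3p arms, the miR-99, miR-100 and miR-125 arms and the 5 nearest profiles; miR-1961 was named after its sequence was seen.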

Additional observations from a re-analysis of the deposited data

How the results depend on the processing

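Of 127 re-estimates of the 10 members' changes, 97 kept their direction and stayed uncalled, 14 became called and 16 changed sign without being called. The number of members called was 2 with total counts alone (let-7i-5p and let-7c-5p), against 36.3% of tested miRNAs. It was 3 when no filter was used (miR-98-5p, let-7f-5p and let-7i-5p), against 18.3%. With the let-7 5p sum as library size it was 1, and without miR-200 and miR-183 also 1 (let-7a-5p in both). The shares there were 32.4% and 34.4%. When names of several positions were dropped it was 1 of 7 (let-7i-5p), against 35.6%. The other calls came with 1 library left out. The members' median was 0.28 with total counts alone, 0.30 with no filter and -0.057 without miR-200 and miR-183, settings that moved the median of all tested miRNAs by 0.22, 0.24 and -0.12. Changes of sign with total counts and no filter were 0.17 and 0.20 for let-7b-5p and 0.037 and 0.063 for let-7d-5p. With the let-7 5p sum they were -0.0089 for let-7g-5p and -0.00053 for let-7k. Without miR-200 and miR-183 the e, g and k members had -0.041, -0.081 and -0.073, and at a minimum count of 50 they had -0.014, -0.052 and -0.044. With 1 library left out let-7b-5p ran from -0.16 to 0.070, let-7g-5p from -0.053 to 0.12 and let-7k from -0.027 to 0.11. The cause was not tested. The family's share was 7.86 percentage points higher in GFP-AGO2, 5.69 to 10.02 with 1 library left out, and -2.54 without miR-200 and miR-183 in the denominator. Members separated within the family were 7 of 10, against 70.5% of all tested miRNAs relative to the same sum. Among the 7 members with 1 position there were 4, and no share over all miRNAs was computed for that setting. With 1 library left out a group of 1 library separates more easily, so those counts are not read. Of the 18 tested 3p and neighbouring arms 6 were called, against 34.4% of all tested miRNAs. With 1 library left out the number of arms called ran from 3 to 8. The share of all tested miRNAs called, given above, varied too in those fits, so these counts are not read either.

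The fit with the replicate number as a block called 0 members and 5 of the 6 arms, leaving out miR-125a-5p (0.45, adjusted p = 0.107). Deviations of same-numbered libraries correlated at -0.06, so the numbers are not read as pairs. Depth limits let-7j, miR-98-3p, let-7g-3p and let-7a-2-3p, with at most 39 counts in a library. The error of the abundant members rests on the spread between libraries within both groups, which edgeR estimates with help from the other tested miRNAs.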
